A study of Mus musculus with 30 samples.

Results

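Matrix metalloproteases, ADAM and ADAMTS proteases and the TIMP inhibitors were followed through mammary carcinomas of mice carrying a c-Myc transgene. The members were the probes annotated to a single symbol that starts with Mmp, Timp, Adam or Adamts and goes on with a digit, and that had a value on at least 24 of 30 arrays. Of 59 such probes for 56 genes, 45 probes for 43 genes met the array minimum, out of 16124 probes that did so in a table of 22800. A further condition, a value in each RNA extract, left 36 member probes for 35 genes among the 12888 probes tested.

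The arrays compared 15 RNA extracts of these carcinomas with a single common reference RNA, of undescribed composition. Each extract was hybridised on 2 arrays with the channels exchanged. Extract codes join a number to a letter. There are 10 numbers, of which 579 stands on 5 extracts, 546 on 2 and each of the others on 1. Of the arrays, 25 were described under epithelial to mesenchymal transition and 5 under tumour progression; extracts 550-A and 561-B carried the progression description on both arrays and 595-A on one of its arrays. The promoter of the transgene, the strain and the age of the mice, and any treatment, are not described in the labels. The labels do not tie extracts to animals, and a p-value here measures the spread between these RNA samples alone, part of which may be technical. No tumour without the transgene and no normal gland was among the samples used here, so every value is a position relative to the reference RNA.

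Values are log2 ratios of an extract and the reference, averaged over the paired arrays. Which channel was divided by which is not stated. The Myc probe was at 3.16 ± 0.11 (SE, n = 15 extracts) after the arrays with the extract in channel 2 had been turned in sign, and positive values are therefore called the Myc side and negative values the opposite side. Since the mice carry a Myc transgene, an extract probably exceeded the reference where values are positive, but this basis is the design and not a measurement of direction. Arrays held 13434 to 21991 values, fewest in 546-A and 548-A. Of 17 epithelial marker probes tested, 16 differed from 0 on the Myc side (30.4% of all probes tested did so) and 0 opposite (16.9%). This places epithelial markers relative to the reference alone.

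Matrix metalloproteases are zinc enzymes that cut collagens, proteoglycans and other proteins outside the cell, and most are secreted as inactive precursors. TIMPs are small secreted proteins that block them by occupying the zinc site. ADAMs are membrane proteins, several of which release growth factors, cytokine receptors and adhesion molecules from the cell surface, while ADAMTS enzymes are secreted and process procollagens and proteoglycans. In mammary tumours many matrix metalloproteases and TIMPs are known to be made by fibroblasts and macrophages around the carcinoma cells as well as by the carcinoma cells themselves.

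The 3 tested members with the highest means on the Myc side, Mmp12 (2.03), Mmp13 (1.07) and Mmp10 (0.88), are genes of a single cluster. The other tested genes of the cluster, Mmp3 and Mmp8, had means of -0.21 and 0.03. Adamts8, outside the cluster and not tested for want of a value in each extract, had a mean of 1.17. On mouse chromosome 9 the RefSeq gene table (assembly GRCm38.p6) lists, between Dcun1d5 and Tmem123, the genes Mmp13, Mmp12, Mmp1b, Mmp3, Mmp1a, Mmp10, Mmp8, Mmp27, Mmp20 and Mmp7 in that order, and 7 of the members lie there. Promoter windows from RefSeq, which run from 250 bases before to 50 bases after an annotated start, were found for 26 of the 43 member genes, in 31 windows. They were searched on both strands for TGAGTCA (the AP-1 site), AGGAAG (the core bound by ETS factors such as PEA3), TATAAA (the TATA box) and GGGCGG (the GC box). The windows of Mmp13, Mmp12 and Mmp10 are shown as the clustered genes on the Myc side, and those of Timp1 and Mmp14 as members that differed between extracts. Matches to any of the motifs on either strand are in capitals, and the sequences run 5′ to 3′ on the strand of the gene.
Mmp13, plus strand, chr9:7272264-7272563 (GRCm38.p6): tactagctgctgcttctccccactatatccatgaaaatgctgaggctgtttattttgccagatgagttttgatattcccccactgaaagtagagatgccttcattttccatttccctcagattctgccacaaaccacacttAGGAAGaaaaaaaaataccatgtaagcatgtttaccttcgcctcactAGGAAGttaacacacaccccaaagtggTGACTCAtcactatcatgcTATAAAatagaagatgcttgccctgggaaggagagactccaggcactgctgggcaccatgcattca
Mmp12, second annotated start, plus strand, chr9:7347124-7347423 (GRCm38.p6): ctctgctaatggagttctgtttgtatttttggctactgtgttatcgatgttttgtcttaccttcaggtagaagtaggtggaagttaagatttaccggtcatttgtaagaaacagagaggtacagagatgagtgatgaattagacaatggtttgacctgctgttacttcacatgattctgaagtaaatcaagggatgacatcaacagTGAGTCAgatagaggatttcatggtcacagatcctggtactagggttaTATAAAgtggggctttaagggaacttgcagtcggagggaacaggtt
Mmp10, plus strand, chr9:7502092-7502391 (GRCm38.p6): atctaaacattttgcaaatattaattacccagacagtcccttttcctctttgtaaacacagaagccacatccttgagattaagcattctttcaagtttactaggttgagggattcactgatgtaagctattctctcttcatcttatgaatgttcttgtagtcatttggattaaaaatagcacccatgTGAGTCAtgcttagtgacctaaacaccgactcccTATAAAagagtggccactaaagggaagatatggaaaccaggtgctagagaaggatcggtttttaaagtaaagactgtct
Timp1, plus strand, chrX:20869916-20870215 (GRCm38.p6): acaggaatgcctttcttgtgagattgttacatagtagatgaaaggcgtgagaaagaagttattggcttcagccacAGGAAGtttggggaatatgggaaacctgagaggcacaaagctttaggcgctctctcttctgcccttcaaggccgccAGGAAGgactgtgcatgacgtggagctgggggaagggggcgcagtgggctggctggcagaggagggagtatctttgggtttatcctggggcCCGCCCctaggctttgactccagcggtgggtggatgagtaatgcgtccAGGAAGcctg
Mmp14, plus strand, chr14:54431348-54431647 (GRCm38.p6): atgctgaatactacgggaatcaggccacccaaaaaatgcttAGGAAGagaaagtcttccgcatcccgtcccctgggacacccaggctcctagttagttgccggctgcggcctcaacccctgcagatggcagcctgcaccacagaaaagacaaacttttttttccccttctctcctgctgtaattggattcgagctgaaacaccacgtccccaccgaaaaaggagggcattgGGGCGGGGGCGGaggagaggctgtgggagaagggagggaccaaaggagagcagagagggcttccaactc

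The AP-1 letters begin at -35 in the Mmp13 window (on the minus strand), at -44 in that of Mmp12 and at -63 in that of Mmp10, counted from the annotated start. These 3 windows also hold the TATA letters, beginning at -16, 5 and -29 in the same order. The window of the other annotated start of Mmp12, not shown, holds neither AP-1 nor TATA letters, and of the motifs searched only AGGAAG, on the minus strand at -87. The Timp1 and Mmp14 windows hold neither of these in the exact letters searched but hold GC boxes and AGGAAG. Variants of the letters were not searched. The Timp1 window holds tgagtaa, which differs from the AP-1 letters at a single base, shortly before its last AGGAAG. Over all 32851 mouse promoter windows the AP-1 letters occur in 5.2%, the TATA letters in 13.6%, AGGAAG in 35.4% and the GC box in 35.7%. Of the 31 member windows, AP-1 letters occur in 19.4%, TATA letters in 25.8%, AGGAAG in 38.7% and the GC box in 51.6%. Counted by gene over the 26 member genes with a window, AP-1 letters were found for 6 (Adam19, Mmp3, Mmp7, Mmp10, Mmp12 and Mmp13). Of these, Adam19 and Mmp3 did not differ from the reference and Mmp7 was not tested. By the same count, TATA letters were found for 8, AGGAAG for 11 and the GC box for 16. These are matches of letters in a fixed window and describe no measured binding.

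Against the reference, 16 of the 36 member probes tested differed from 0 in limma at an adjusted p under 0.05, which is 44.4% and near the 47.2% of all probes tested. The Myc side held 7 (background 30.4%), namely Mmp12, Mmp13, Mmp10, Adam11, Adam8, Adam24 and a probe of Adamts9, and the opposite side held 9 (background 16.9%), namely both probes of Mmp19, Adamts1, Timp1, Timp2, Timp3, Mmp11, Mmp2 and Mmp24. The other 20 did not pass. The median of the member means was -0.13, against 0.13 for all probes tested. Subtracting the median of each array moved the median of all probes to 0.03, and then 5 members passed on the Myc side (background 25.7%), with 10 opposite (background 21.4%). The SD over extracts was larger for members, with a median of 0.86, against 0.62 for all probes tested. This spread also holds differences between the paired arrays of an extract.

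**Figure D1:**
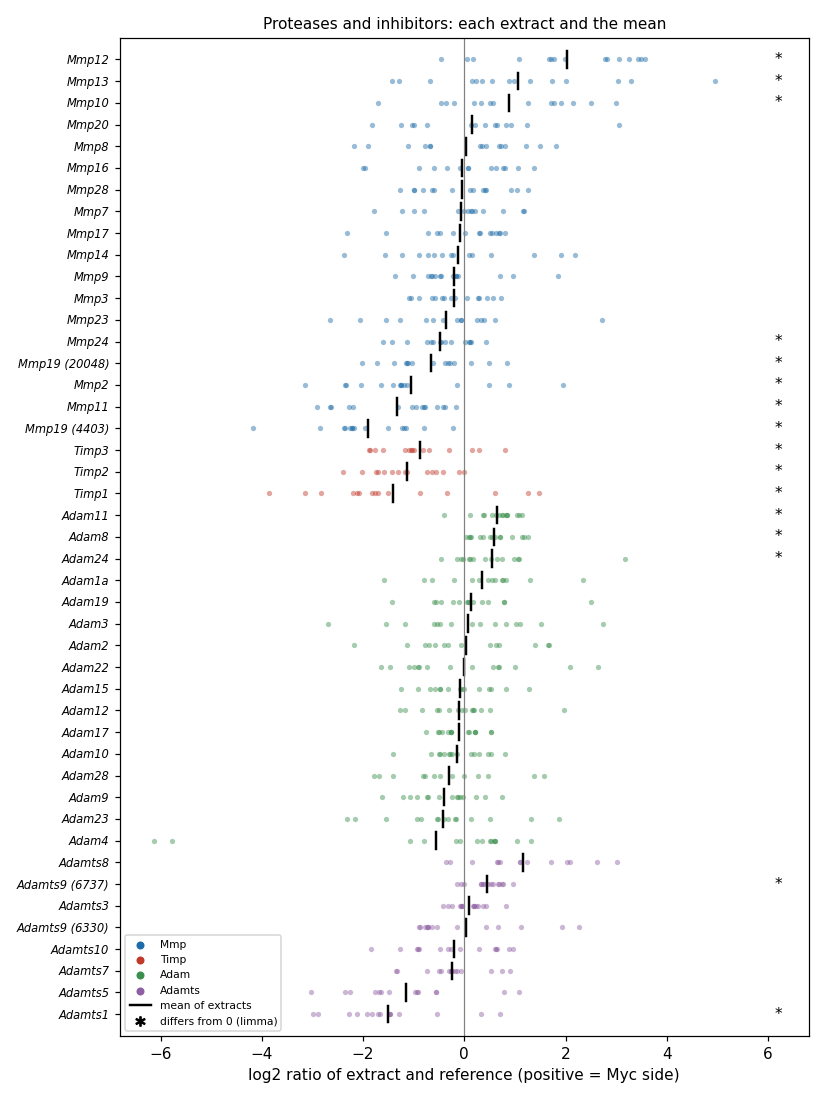
Log2 ratio of extract and reference (horizontal axis, positive on the Myc side) for all 45 member probes, with a point for each of 15 extracts (13 to 15 have values, depending on the probe), a black bar at the mean and a star where limma called the mean different from 0. The secreted enzyme Mmp12 lies farthest to the right at 2.03, all 3 Timp genes lie left of 0, and the mean of every ADAM probe lies between -0.55 and 0.64.

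Mmp12, the macrophage elastase, which cuts elastin, had the highest mean of the tested members. It was at 3.57 in 547-A, 3.5 in 579-B, 3.44 in 595-A, 3.26 in 540-B, 3.06 in 579-A, 2.82 in 561-B, 2.79 in 567-B, 1.99 in 597-B, 1.77 in 548-A, 1.72 in 546-B, 1.67 in 550-A and 1.08 in 546-A. In the remaining extracts, all of number 579, it was at 0.17 in 579-E, 0.05 in 579-F and -0.46 in 579-D. These 3 extracts, named because they were lowest, lay near or below the reference, although 579-A and 579-B of the same number were among the highest. Their channel 1 and channel 2 arrays lay on opposite sides of 0 in 579-D (0.21 and -1.13), 579-E (-0.7 and 1.04) and 579-F (-2.0 and 2.11). The mean was 2.03 ± 0.32 (SE, n = 15), a 4.08-fold difference on the Myc side (adjusted p = 5.01e-05), and it passed when any extract was left out.

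Mmp13, a collagenase that cuts fibrillar collagen, reached 4.95 in 546-A, 3.30 in 540-B and 3.03 in 550-A. It was at 2.01 in 579-B, 1.74 in 546-B, 1.29 in 579-F, 0.98 in 561-B, 0.88 in 597-B, 0.54 in 567-B, 0.36 in 547-A, 0.24 in 579-A and 0.16 in 579-E, and at -0.68 in 595-A, -1.29 in 579-D and -1.42 in 548-A. Its SD of 1.74 was the second largest of the family and the extracts spread to both sides of the reference. The mean of 1.07 ± 0.41 (SE, n = 15) passed narrowly (adjusted p = 0.0392); it did not pass after each array's median was subtracted, with 1 mean per code number, from the arrays with the extract in channel 1, or without any of 540-B, 546-A, 546-B, 550-A, 561-B, 579-B, 579-F or 597-B (0.80 to 1.09 without them).

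Mmp8, the collagenase of neutrophils, ran from -2.17 in 548-A over a median of 0.36 to 1.82 in 547-A and its mean of 0.03 did not pass (adjusted p = 0.934). Of its values, 60.0% were ratios of small whole numbers, a pattern found in 33.6% of all values of the table.

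The stromelysins, which cut proteoglycans and activate other precursors, split. Mmp10 (stromelysin-2) ran from -1.70 in 579-B over a median of 0.57 to 2.99 in 546-A and lay on the Myc side in 11 of 15 extracts. Its mean was 0.88 ± 0.31 (SE; adjusted p = 0.0262) and it did not pass from the channel 2 arrays (0.54) or without any of 540-B, 546-A, 567-B, 579-F or 597-B (0.73 to 0.81). Mmp11 (stromelysin-3, known from the stroma of breast carcinomas) lay on the opposite side in 15 of 15 extracts, from -2.90 in 597-B over a median of -0.95 to -0.16 in 595-A. Its mean was -1.32 ± 0.23 (SE; adjusted p = 0.000128), at -2.05 with the extract in channel 1 and -0.60 in channel 2, where it did not pass. Mmp3 (stromelysin-1) ran from -1.10 in 579-D to 0.73 in 550-A, with a mean of -0.21 that did not pass.

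The gelatinases cut denatured collagen and basement membrane collagen. Mmp2 was at 1.95 in 546-A, 0.88 in 550-A and 0.48 in 540-B, and below 0 in the other 12 extracts, from -0.15 in 546-B to -3.15 in 579-D with a median over all extracts of -1.24. Most extracts therefore lay on the opposite side and 3 lay across it. The mean was -1.06 ± 0.32 (SE, n = 15; adjusted p = 0.0109), weaker with the extract in channel 2 (-0.67, not passing). Mmp9 ran from -1.36 in 595-A over a median of -0.46 to 1.85 in 550-A, and its mean of -0.20 did not pass (adjusted p = 0.433).

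The enzymes anchored in the membrane had means near the reference or below it. Mmp14, the membrane-type enzyme that activates Mmp2, was at 2.19 in 546-A, 1.92 in 550-A, 1.37 in 540-B, 0.53 in 546-B, 0.16 in 561-B and 0.09 in 579-A. It was at -0.23 in 579-E, -0.27 in 547-A, -0.43 in 579-B, -0.60 in 567-B, -0.72 in 579-F, -0.89 in 595-A, -1.22 in 597-B, -1.56 in 579-D and -2.37 in 548-A. With 6 extracts above the reference level of 0 and 9 below it, its mean of -0.13 did not pass (adjusted p = 0.741). Mmp24 averaged -0.47 ± 0.15 (SE; adjusted p = 0.0163), but at -1.48 in channel 1 and 0.63 in channel 2, and it did not pass with 1 mean per code number. Mmp17 (-0.09) and Mmp23 (-0.36) did not pass, and Mmp16, which had no value in 1 extract, was not tested.

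Among the remaining secreted enzymes, Mmp19 lay on the opposite side by both of its probes but by different amounts. Probe 4403 ran from -4.17 in 548-A over a median of -2.17 to -0.23 in 546-A and was negative in 15 of 15 extracts, with a mean of -1.91 ± 0.23 (SE; adjusted p = 2.89e-06). Probe 20048 ran from -2.01 in 548-A over -0.62 to 0.84 in 579-F, with a mean of -0.66 ± 0.20 (SE; adjusted p = 0.00998). The channel means of probe 20048 were -1.86 in channel 1 and 0.38 in channel 2, so only probe 4403 kept its side in both. Mmp28 (epilysin) averaged -0.05 and did not pass, while Mmp7 (matrilysin) and the enamel protease Mmp20 had no value in 1 extract each and were not tested.

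All 3 TIMPs measured lay on the opposite side, which held in both channel orders and after each array's median was subtracted. Timp1 was at 1.47 in 550-A, 1.25 in 546-A and 0.60 in 540-B, at -0.35 in 579-E and -0.88 in 546-B, and from -1.5 to -3.85 in the other 10 extracts, lowest in 579-D. Its mean was -1.40 ± 0.37 (SE, n = 15; adjusted p = 0.0044) and its SD of 1.55 the largest of the inhibitors. Timp2, which also takes part in activating Mmp2 on the cell surface, was negative in 15 of 15 extracts, from -2.40 in 548-A over a median of -1.17 to -0.01 in 546-A. Its mean was -1.13 ± 0.18 (SE; adjusted p = 4.76e-05), and unlike Timp1 it had no extract on the Myc side. Timp3, which stays bound to the matrix and also blocks ADAM17, ran from -1.88 in 595-A over a median of -1.03 to 0.80 in 550-A. Its mean was -0.87 ± 0.20 (SE; adjusted p = 0.0015), at -1.43 in channel 1 and -0.32 in channel 2, where it did not pass. The probe of Timp4 fell under the array minimum.

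Of 13 tested ADAM probes, 3 passed on the Myc side (30.4% of all probes tested did so), 0 passed opposite (16.9% of all probes) and 10 did not pass. Adam8, an active protease of leukocytes and some carcinoma cells, was the only tested member positive in 15 of 15 extracts. It ran from 0.04 in 579-B over a median of 0.55 to 1.25 in 579-F and averaged 0.58 ± 0.11 (SE; adjusted p = 0.000432), a 1.5-fold difference. Adam11, which lacks the catalytic site and is best known from neurons, ran from -0.40 in 579-D over 0.74 to 1.15 in 540-B, positive in 14 of 15 extracts, and averaged 0.64 ± 0.11 (SE; adjusted p = 0.000148).

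The sheddases Adam10, which starts the release of Notch and cadherin fragments, and Adam17, which releases tumour necrosis factor and ligands of the EGF receptor, averaged -0.14 and -0.10 and did not pass. Adam10 ran from -1.41 in 579-D to 0.81 in 550-A and Adam17 from -0.75 to 0.52 in the same extracts. Adam9 averaged -0.40 ± 0.16 (SE) and fell just short (adjusted p = 0.0506); it passed on the opposite side after each array's median was subtracted (-0.50) and without 540-B, 546-A, 550-A or 579-E (-0.43 to -0.48). Adam12 (-0.10), Adam15 (-0.09), Adam19 (0.13), Adam22 (-0.01) and Adam23 (-0.41) did not pass, and Adam28 was not tested. Adam22 ran from -1.64 in 579-E over a median of -0.29 to 2.65 in 579-F (SD 1.28), at -1.29 in channel 1 and 1.0 in channel 2. Adam22 and Adam23, which like Adam11 lack the catalytic site, had small whole-number ratios in 71.43% and 57.69% of their values.

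The next genes are known from the testis and the sperm surface. Adam24 averaged 0.55 ± 0.21 (SE, limma adjusted p = 0.038), but at -0.92 in channel 1 and 1.62 in channel 2. Its highest values, 3.17 in 546-A and 1.08 in 548-A, came from the channel 2 array alone, which raises the mean. It did not pass after centring, with 1 mean per code number or without 546-A and 548-A together. Testing all probes with values in at least 3 extracts also lost it (limma adjusted p = 0.066). Nor did it pass without any of 540-B, 546-B, 548-A, 561-B, 567-B, 579-A or 595-A (0.52 to 0.56). Adam4 had the largest SD of the family, 2.28. That spread came from 2 extracts, at -6.13 in 548-A and -5.78 in 546-A, each measured on the channel 1 array alone, while the other 13 lay between -1.07 and 1.31. The Adam4 channel means were -1.81 and 1.73, and its mean of -0.55 did not pass (adjusted p = 0.428). Adam3 ran from -2.70 in 579-B over 0.16 to 2.75 in 546-B (mean 0.07, SD 1.34, not passing), and Adam1a and Adam2 were not tested.

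In the ADAMTS group, Adamts1, which cuts versican and aggrecan, stood apart on the opposite side. It was at 0.71 in 546-A and 0.34 in 579-E and negative in the other 13 extracts, down to -2.98 in 567-B, with a median of -1.66. Its mean was -1.5 ± 0.25 (SE; adjusted p = 8.15e-05), a 2.83-fold difference that held its side in both channel orders (-1.72 and -1.29). Adamts9, also a proteoglycanase, lay on the Myc side by probe 6737 at 0.44 ± 0.10 (SE, adjusted p = 0.00113), at 0.93 in channel 1 and -0.05 in channel 2. Its probe 6330 was not tested and did not share that side. It had a mean of 0.03 and a median of -0.59 over 14 extracts, 5 positive and 9 negative. Its channel means were 0.68 and -0.99. The procollagen protease gene Adamts3 (0.10), Adamts7 (-0.24) and Adamts10 (-0.20) did not pass. Adamts5 and Adamts8 had a value in 14 extracts each and were not tested; Adamts5 was negative in 12 of them (mean -1.16) and Adamts8 positive in 12 (mean 1.17, at 0.05 in channel 1 and 2.15 in channel 2).

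**Figure D2:**
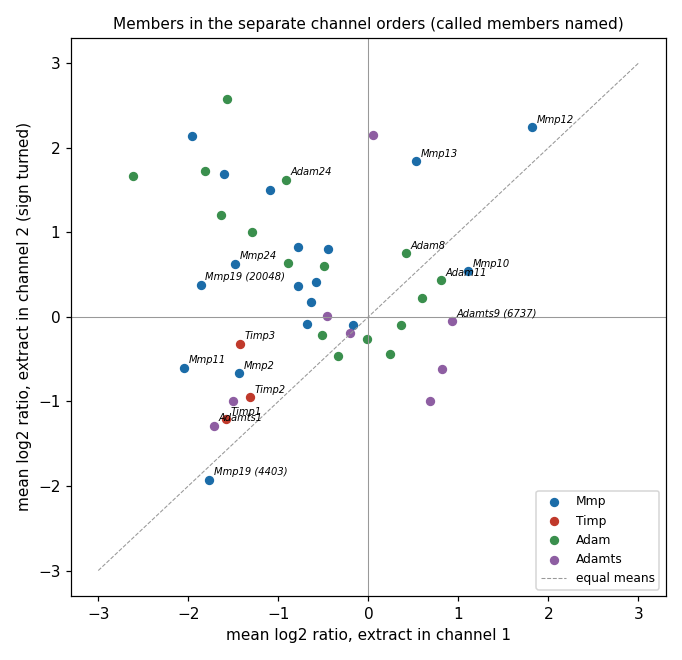
Mean log2 ratio of each member probe over arrays with the extract in channel 1 (horizontal axis) and in channel 2 with the sign turned (vertical axis), with called members named. Of the 16 called members, 12 lie on the same side in both orders and 4 (Mmp24, Mmp19 by probe 20048, Adam24 and Adamts9 by probe 6737) do not.

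The orientation of the channels thus bears on several members. Of the 16 called, 12 kept their side in both orders, and 4 turned. Among members that did not pass, Adam12 was at -1.64 in channel 1 and 1.21 in channel 2, Mmp28 at -1.60 and 1.69, and Adam3 at -1.57 and 2.58, so a mean near 0 for these stands for opposed values in the separate orders.

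The comparison between extracts asked whether the carcinomas differed among themselves by more than the paired arrays of 1 extract did. In an F-test with a channel term, 6 of 36 member probes passed (16.7%, against 6.22% of all probes tested). They were Timp1 (adjusted p = 5.15e-05), Mmp2 (0.000129), Mmp14 (0.00748), Adam9 (0.0157), Timp2 (0.0259) and Mmp12 (0.0454). Mmp13 fell just short (adjusted p = 0.0614).

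Timp1, Mmp2, Mmp14 and Mmp13 all had their 3 highest values in 546-A, 550-A and 540-B, in differing order. Their lowest values were in 579-D or 548-A. For Timp1 and Mmp2 these 3 were the only extracts on the Myc side, and Mmp13 was at 3.03 or more there and at 2.01 or less elsewhere. Adam9 was highest in 546-A (0.74) and 579-E (0.40) and lowest in 548-A (-1.63) and 579-B (-1.21). Timp2 was highest in 546-A and 579-E (-0.10) and lowest in 548-A and 597-B (-2.01). Timp1, Mmp2, Mmp14 and Adam9 passed whichever extract was left out; Timp2 did not without 546-A, 548-A or 579-E. Neither Adam9 nor Timp2 passed after each array's median was subtracted.

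Mmp12 followed another order, with its low values in 579-D, 579-E and 579-F. Its paired arrays disagreed most in 579-F, at -2.0 with the extract in channel 1 and 2.11 in channel 2. The call for Mmp12 between extracts passed in 2 of 15 fits that left out an extract, those without 561-B or 579-F, and is the least firm of the 6.

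**Figure D3:**
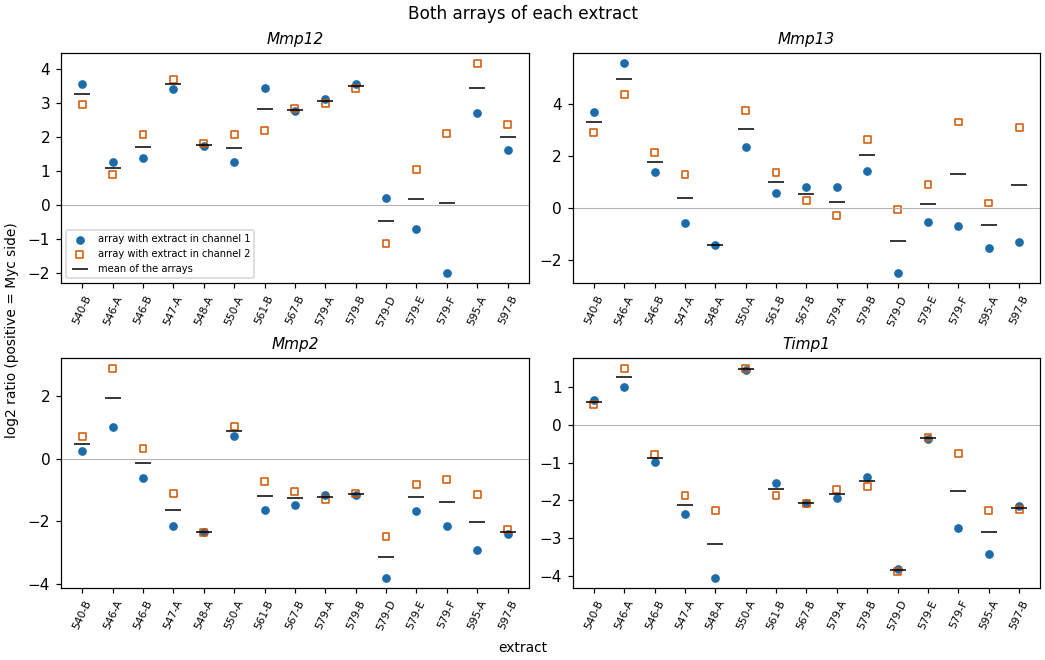
Log2 ratios on both arrays of each extract for Mmp12, Mmp13, Mmp2 and Timp1 (vertical axis, positive on the Myc side; filled circle, extract in channel 1; open square, extract in channel 2; bar, their mean) over the 15 extracts. The paired arrays lie close together for Timp1 in most extracts. Mmp12 is near or below 0 in 579-D, 579-E and 579-F, with the paired arrays of each on opposite sides.

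Bulk tumour RNA holds stroma, and fewer cells of a type and less RNA per cell cannot be told apart in it. The members were therefore set against the mean of 17 fibroblast marker probes (collagen genes, Dcn, Sparc, Postn and others; none is a member). The level of this mean ran from -2.26 in 579-D to 1.21 in 546-A. Centred by probe, it was 1.89 in 546-A, 1.43 in 550-A and 1.40 in 540-B, 0.64 or less in the other extracts, and lowest in 579-D (-1.58), 595-A (-1.21) and 548-A (-1.12). In limma, 10 of 36 member probes had a slope above 0 on this mean (27.8%, against 2.4% of all probes tested) and 0 had a slope below 0 (background 0.101%). Slopes are in log2 units of the member per log2 unit of the marker mean.

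The steepest called slopes were those of Mmp13 (1.5 ± 0.21, SE, adjusted p = 0.000609), Timp1 (1.45 ± 0.13, adjusted p = 8.15e-06), Mmp2 (1.24 ± 0.12, adjusted p = 1.73e-05) and Mmp14 (1.15 ± 0.12, adjusted p = 3.74e-05). In these 4 genes the fitted slope was above 1. Shallower slopes passed for Mmp19 by probe 4403 (0.71, adjusted p = 0.0236), Timp3 (0.69, 0.00247), Mmp9 (0.68, 0.00659), Adam19 (0.64, 0.0365), Adam9 (0.50, 0.0288) and Adam10 (0.46, 0.0162). Timp2 had a slope of 0.51 and fell just short (adjusted p = 0.0526). Mmp12 had a slope of 0.07 ± 0.33 (adjusted p = 0.954), Adamts1 of 0.58 (adjusted p = 0.186) and Adam8 of 0.15 (adjusted p = 0.554).

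Of the 10 members with a called slope, 6 were highest in 546-A and 4 in 550-A, and the count of calls moved with the extracts included. With 1 mean per code number, 5 of the 10 passed (Timp1, Mmp2, Mmp13, Mmp14 and Timp3; background 0.466%). Without 579-D, 6 passed, and without 546-A and 548-A together, 6 passed. Without 546-A and 550-A, the extracts farthest from the median of the marker mean, 3 passed, namely Timp1, Mmp2 and Mmp14, and the same 3 passed from the channel 2 arrays alone. Apart from the fit with 1 mean per code number, the share over all probes tested is not given for these fits. Their counts show which member calls held and do not compare the members with other probes.

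**Figure D4:**
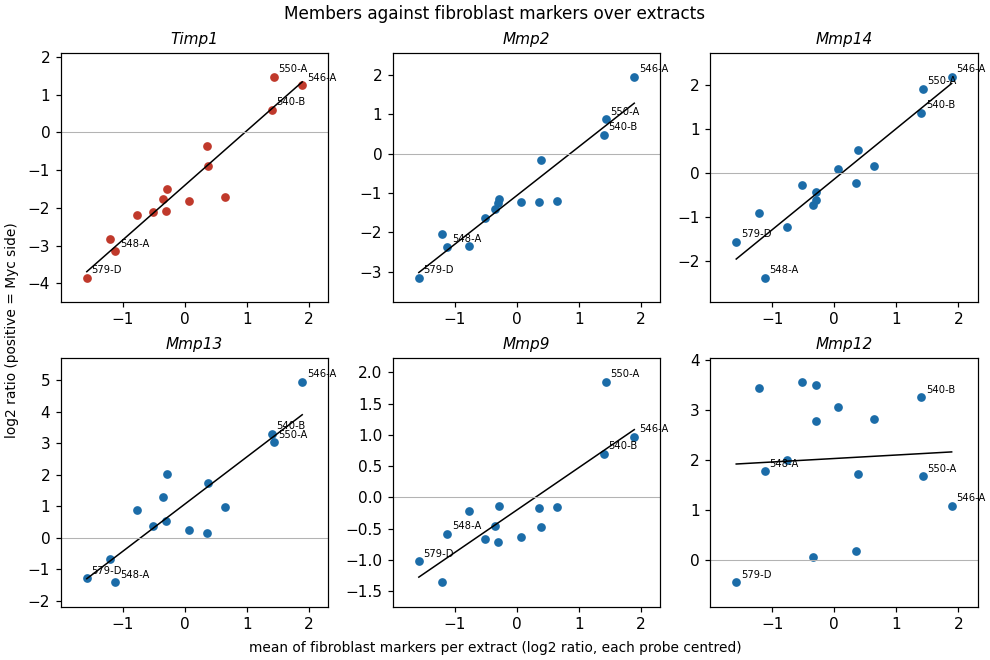
Log2 ratio of 6 members (vertical axes, positive on the Myc side) against the mean of 17 fibroblast markers in each extract (horizontal axis, log2 ratio centred by probe), with a point for each of 15 extracts and limma's line. Timp1, Mmp2 and Mmp14 climb along the line through all extracts, while Mmp9 rests more on 546-A, 550-A and 540-B and Mmp12 has a slope of 0.07.

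**Figure D5:**
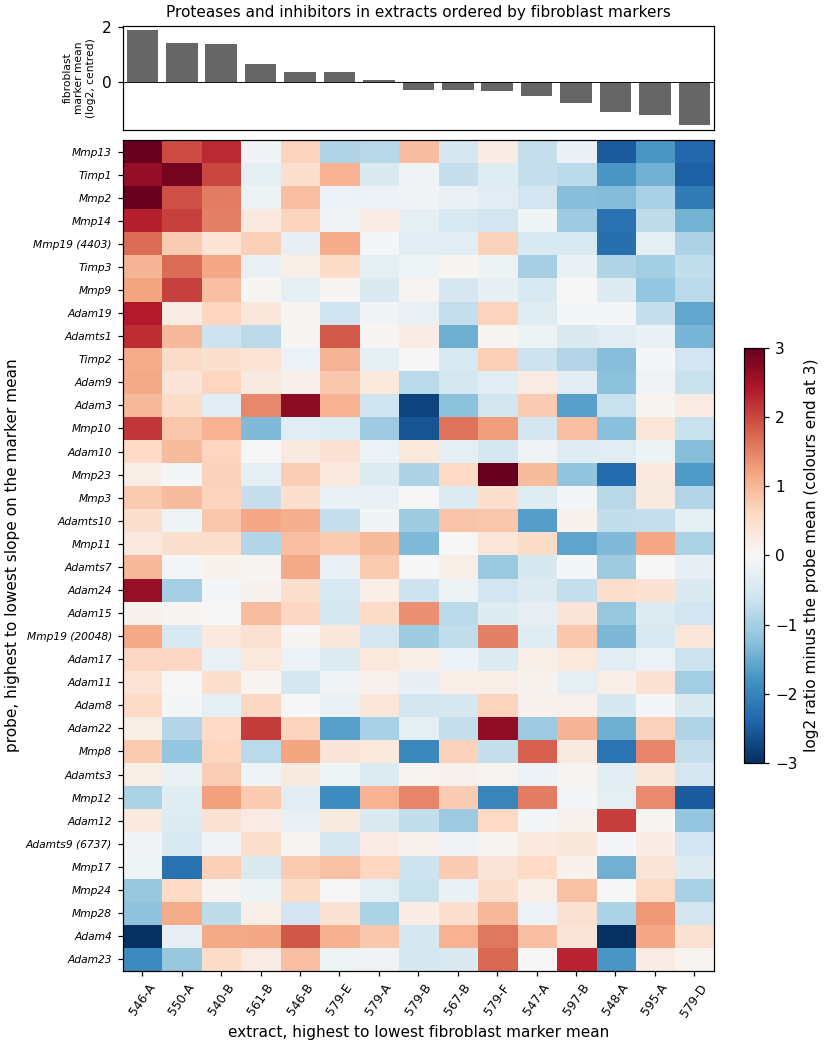
Log2 ratio minus the probe mean (colour) for 36 tested member probes (rows, from the steepest to the lowest slope on fibroblast markers) in 15 extracts (columns, from the highest to the lowest fibroblast marker mean, drawn as bars above). The upper rows, from Mmp13 to Mmp9, are red in 546-A, 550-A and 540-B, and the Mmp12 row is blue in 579-D, 579-E and 579-F.

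Macrophage markers gave a thinner relation. The mean of 14 myeloid marker probes ran from -0.13 in 579-D to 1.57 in 546-A. Slopes above 0 passed for 2 members (5.56%, against 1.4% of all probes tested) and slopes below 0 for 0 members (background 0.0388%). The positive slopes were those of Mmp14 (2.15 ± 0.43, SE, adjusted p = 0.0264) and Mmp2 (2.19 ± 0.49, adjusted p = 0.0396). Neither passed without 546-A, without 548-A or without 579-D, and 0 members passed with 1 mean per code number (background 0.0%). Without 540-B, 546-B, 567-B, 579-B or 597-B in turn, 1 passed, with the share over all probes tested not given for these fits. Of the marker probes themselves, 5 of 17 for fibroblasts had a called slope on the macrophage mean and 3 of 14 for macrophages on the fibroblast mean. Mmp12, the macrophage elastase gene, had a macrophage slope of 1.48 ± 0.63 that did not pass (adjusted p = 0.225); the slope was 2.89 ± 0.63 without 546-A and 548-A and 0.81 ± 0.68 with 1 mean per code number, and passed under neither. In its 3 low extracts the centred macrophage mean was -0.85 (579-D), -0.38 (579-E) and -0.30 (579-F); in 597-B and 548-A it was -0.36 and -0.75, with Mmp12 at 1.99 and 1.77. The part of either cell type in these values was not tested.

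Between the 5 extracts of number 579 and the 10 of other numbers, 0 members passed in limma (background 0.0%); 0 members were under 0.05 before adjustment, against 3.57% of all probes tested. Mmp12 averaged 1.27 ± 1.86 in number 579, against 2.41 ± 0.87 in the other numbers (SD), and the extracts overlapped. Mmp2 averaged -1.63 ± 0.85 in number 579, against -0.77 ± 1.48 in the others. Timp1 ran from -3.85 to -0.35 in number 579, against -3.15 to 1.47 in the other numbers, and Mmp14 from -1.56 to 0.09, against -2.37 to 2.19, so both overlapped.

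The extracts described under tumour progression on both arrays (550-A and 561-B) were set against the 12 described under epithelial to mesenchymal transition on both, leaving out 595-A. No member passed in limma (0 of 36; background 0.00776%), and 2 were under 0.05 before adjustment, against 4.07% of all probes tested. These were Mmp17, at -2.32 and -0.53 in the progression extracts, against -1.54 to 0.80 in the others, and Mmp9, at 1.85 and -0.16, against -1.02 to 0.97. In both cases 550-A stood outside the other description's range and 561-B inside it. With 2 extracts on one side, the size of a difference is poorly fixed.

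Genes that work with these proteases were described by lists that share no gene with the members. Beside each count stands the background of 30.4% of all probes tested on the Myc side and 16.9% opposite, and no list was tested against it. In the plasminogen system, a protease cascade that activates matrix metalloproteases, 1 of 5 tested probes was on the Myc side and 3 were opposite, with 1 not passing. Plau, the urokinase plasminogen activator, averaged -1.29 ± 0.16 (SE; adjusted p = 4.49e-06), Plaur, its receptor, -0.55 (adjusted p = 0.036), and Serpinf2, an inhibitor of plasmin, 0.94 (adjusted p = 0.000501). The Plaur mean was -1.27 in channel 1 and 0.17 in channel 2. Plau, Plaur and Plat each had a called fibroblast slope (0.48, 0.64 and 0.52).

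Of 6 tested probes for other inhibitors and inducers, 2 were on the Myc side (background 30.4%) and 3 opposite (background 16.9%), with 1 not passing. Lcn2, a lipocalin whose human protein is known to form a complex with MMP9, was at 5.93 ± 0.21 (SE, adjusted p = 3.38e-13), a larger ratio than that of any member. Furin, which removes the propeptide of Mmp11, membrane-type enzymes and ADAMs, was at 1.29 ± 0.13 (adjusted p = 3.17e-07) and positive in 15 of 15 extracts. Thbs2, a matrix protein that takes part in the clearance of Mmp2, was at -1.08 ± 0.37 (adjusted p = 0.0229) and had a fibroblast slope of 1.5 (adjusted p = 6.04e-07).

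The cathepsin list had 1 of 9 tested probes on the Myc side (Ctsc, 0.94), 1 opposite (Ctsl, -1.26) and 7 that did not pass. For this list and the next ones, the shares over all probes tested were 30.4% on the Myc side and 16.9% opposite. Helpers of Adam10 and Adam17 had 3 of 5 on the Myc side, among them Tspan15, a tetraspanin partner of Adam10, at 1.75 ± 0.34 (SE; adjusted p = 0.00042) and the proprotein convertase Pcsk7 at 1.06 ± 0.10 (adjusted p = 1.48e-07), and 1 on the opposite side (Tspan17, -0.88). Of 11 probes for ligands and receptors that ADAMs shed, 4 were on the Myc side and 3 opposite, with 4 not passing. Cdh1, the epithelial cadherin cut by Adam10 and also an epithelial marker here, was at 2.56 ± 0.33 (adjusted p = 7.6e-06) and Notch1 at 1.70 ± 0.22 (adjusted p = 6.85e-06), both positive in 15 of 15 extracts. Ereg, an EGF receptor ligand released by Adam17, was at -2.53 ± 0.30 (adjusted p = 2.44e-06). Among ADAMTS-like and astacin genes, 1 of 6 lay on each side and 4 did not pass; Pcolce, which enhances the trimming of procollagen, was at -2.37 ± 0.21 (adjusted p = 8.22e-08), negative in 15 of 15 extracts, with a fibroblast slope of 0.72 (adjusted p = 0.00362).

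Stromal marker lists were read in the same way, beside the 30.4% and 16.9% of all probes. Of 17 fibroblast marker probes, 1 passed on the Myc side, 9 passed opposite and 7 did not pass. Of 14 macrophage marker probes, 9 passed on the Myc side, 1 passed opposite (Msr1, -1.12; 3 probes after each array's median was subtracted) and 4 did not pass. All 7 endothelial marker probes tested passed on the Myc side.

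The 14 family probes under the array minimum had values on 14 to 22 arrays and small whole-number ratios in 45.45% to 80.0% of them. They were annotated to Adam5, Adam7, Adam18, Adam20, Adam21, a further probe of Adam22, Adam25, Adam26a, Adam30, Adam33, Adam39, Mmp1a, Mmp1b and Timp4, and their values are not given.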

How the data were processed

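RNA of 15 extracts was compared with 1 reference RNA on 30 two-channel arrays. The values deposited are log2 channel ratios, a scale read from their range; how the authors corrected background or normalized is not stated, and no channel intensities were used. The value 16.61 (8839 cells) was treated as missing beside 95268 blank cells, which left 84.8% of the table. As deposited, arrays of different extracts in opposite channel order correlated at a median of -0.229 (-0.571 to 0.058). Those of one order correlated at medians of 0.612 (channel 1) and 0.646 (channel 2). The paired arrays of 1 extract correlated at a median of -0.35 (-0.556 to -0.009), weaker in size than different extracts in one order. Arrays with the extract in channel 2 were therefore turned and paired arrays averaged.

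limma 3.58.1 in R 4.3.3 tested extract means against 0 (the spread of the reference is left out), slopes on marker means, and the 2 splits; differences between extracts were tested over single arrays by nested models with a channel term and limma's moderated variances. Benjamini-Hochberg adjustment ran over 12888 probes. The tests were checked on simulated data with normal noise, a channel effect per probe and the missing values of these arrays. No shifts of whole arrays were simulated, so the check does not cover the differences in array medians. Gene names came from the platform annotation, and all 45 members matched the RefSeq gene table. Members and lists were chosen with earlier results of these data known. Named in full were the 12 largest called means, members differing between extracts and the 8 largest SDs; partner lists gave up to 3 called genes. The number of arrays limits precision. No correlation with a member was computed; the slopes stand in its place. Protein stretches that had been planned are not used here, and promoter motifs were chosen after the data were seen.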

Additional observations from a re-analysis of the deposited data

Results flagged for a closer look

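In each member probe the extracts of number 579 and those of the other numbers were searched for a value far from its group (Dixon's criterion). Of 90 groups, 8 held one, where chance alone flags about 1 in 20. Mmp2 was at -3.15 in 579-D, against -1.40 in the nearest of the other 579 extracts, and both arrays lay low (-3.81 and -2.48). Adam19 was at 2.51 in 546-A, against 0.78 in the next extract of the other numbers, with both arrays high (3.76 and 1.26). Adam24 was at 0.75 in 579-A, where its arrays lay on opposite sides (-0.82 and 2.3), and, from 1 array, at 3.17 in 546-A. The remaining values also came from 1 array each: Adam12 at 1.97 in 548-A, Adam23 at 1.32 in 579-F, Adamts5 at 0.79 in 579-F and Mmp7 at -1.22 in 579-B. A value from 1 array keeps its channel order, while most others in its group are means over both orders. Adam12 in 548-A and Adam24 in 546-A had the channel 2 array alone. Their probe means were 1.21 and 1.62 in channel 2, against -1.64 and -0.92 in channel 1. Mmp7 in 579-B had the channel 1 array alone (probe means -0.78 in channel 1 and 0.83 in channel 2). For Adam23 (-0.51 and -0.21) and Adamts5 (-1.5 and -0.99) the channel means differed less. What sets the values apart was not tested.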

How the results depend on the processing

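Counts in this paragraph show how member calls move. For alternative runs, shares over all probes tested are given above only for array centring and 1 mean per code number. The other counts are therefore no result about the members against other probes. The 7 members on the Myc side became 13 from the channel 2 arrays alone, 3 (of 18 tested) among probes with values on all arrays, and 4 to 7 when each extract was left out in turn (4 without 540-B). The 9 on the opposite side became 19 from the channel 1 arrays alone and 9 to 10 with an extract left out. Single orientations turned Adam24 (-0.92, channel 1), Adamts9 by probe 6737 (-0.05, channel 2), Mmp19 by probe 20048 (0.38, channel 2) and Mmp24 (0.63, channel 2). The count between extracts was 6, and 4 to 8 with an extract left out. The 10 positive fibroblast slopes became 3 from the channel 2 arrays, 5 with 1 mean per code number, 6 without 546-A and 548-A, 3 without 546-A and 550-A (chosen after seeing the data) and 6 to 11 with an extract left out (6 without 579-D). The 2 positive macrophage slopes became 7 from the channel 1 arrays and 0 from the channel 2 arrays, with 1 mean per code number, without 546-A and 548-A, and without 579-D and 548-A (chosen after seeing the data), and 0 to 3 with an extract left out. Neither split gave a call under any alternative run. In every extract the array median, after turning, was higher with the extract in channel 2. It was 1.135 against -0.844 in 579-F, and 0.062 against 0.06 in 567-B. The cause of the shifts in these counts was not tested, apart from fewer probes or extracts where these were left out. No paired analysis was possible because the labels give the extracts no replicate numbers shared between groups. Depth is unknown without intensities. A value from 1 array, in 546-A, 548-A or any other extract, keeps the dye effect of its probe.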
